A study of Homo sapiens with 4 samples.

Results

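The genes described here encode the hyaluronan synthases HAS1, HAS2 and HAS3, the hyaluronan receptors CD44 and HMMR, and the hyaluronidases HYAL1, HYAL2 and HYAL3. They are 8 of 19821 protein-coding genes, and all 8 were found in the RefSeq table of GRCh38.p14. They were chosen by name and by their H3K27ac peaks, with earlier results of these data known, so their values are a description without a test. For each gene, the length covered by peaks was summed over the gene record and 50 kb on either side, and for HAS2 also over the 600 kb upstream of its start.

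Acetylation of histone H3 at lysine 27 (H3K27ac), a mark of active promoters and enhancers, was mapped by ChIP-seq in SK-Hep1, a line of human origin that the labels call hepatic adenocarcinoma. One group carried a control shRNA and the other an shRNA that targets SMARCB1, which belongs to the core of the SWI/SNF nucleosome remodelling complexes, and infected cells of both were kept under puromycin selection. Another ChIP-seq library mapped SMARCB1 itself, and its labels do not state which shRNA those cells carried. Each group was 1 library, so no value below has a replicate check. The labels state neither the hairpin sequence nor whether the infected cells were a pool or 1 clone. No RNA was measured, so acetylation is not a measure of transcript level.

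Hyaluronan is a very long sugar polymer of the extracellular matrix. The synthases sit in the plasma membrane and extrude the chain as they build it, CD44 and HMMR bind it at the cell surface or inside the cell, and hyaluronidases cut it into fragments. CD44 is widely used as a marker of mesenchymal and stem-like tumour cells, HMMR also works on the mitotic spindle, and HYAL2 and HYAL1 act in sequence at the membrane and in the lysosome.

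The control H3K27ac library held 13235203 tags and the knockdown library 10203310, with 53.78% and 55.07% of them in peaks. The lists held 35307 and 34073 H3K27ac peaks, which covered 79.5 and 70.9 Mb, a knockdown to control ratio of 0.892, and 4453 SMARCB1 peaks. Because the knockdown library was shallower and its peaks cover less of the genome in all, a shorter covered length at a gene has to be read against the other genes. Among markers of the cell type, 2 of 10 hepatocyte genes (SERPINA1 and TF) and 1 of 10 endothelial genes (ENG) had H3K27ac 1 kb or less from an end of the gene in both libraries. ALB, APOA1 and HNF4A had none, nor had PECAM1, CDH5 and VWF. Of 10 mesenchymal genes, 8 had it in the control and 7 in the knockdown, VIM and FN1 among them in both.

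HAS2 stood at one end of the range and CD44 at the other. HAS2 had 1308 bp of H3K27ac in control cells and 3772 bp in knockdown cells, and CD44 had 41127 and 25620 bp. A gene was called past the threshold when the ratio of covered lengths, with 500 bp added to each, reached 1.5-fold. By that rule HAS2 was the 1 member higher in the knockdown, where 2.70% of the 17422 genes with a peak were higher, and CD44 the 1 member lower, where 6.76% were lower. The other 6 members lay within 1.5-fold. After centring on all covered bases CD44 was 1.42-fold lower and no member was called lower, where 3.58% of all genes were higher and 4.28% lower. Covered length was shorter in the knockdown at 7 of the 8 genes, as it was at 78.2% of all genes with a peak, and after centring on all covered bases HAS1 turned to the other side. The median log2 ratio of knockdown to control was -0.32 for the members and -0.17 for all genes with a peak. The windows of HYAL1, HYAL2 and HYAL3 overlap and share most of their peaks. Each still enters the member counts and median as its own value. Centring shifted the median by 0.16, and the medians became -0.16 and -0.02. Of all genes past the threshold, 28.6% were higher in the knockdown as deposited and 45.6% after centring.

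**Figure D1:**
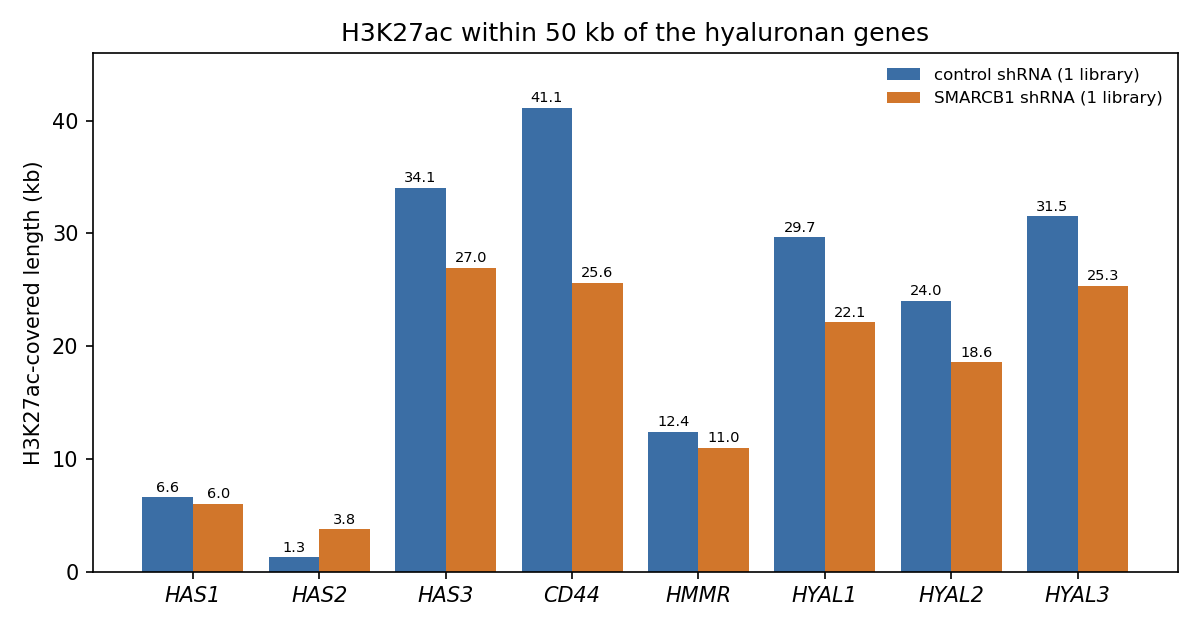
H3K27ac-covered length in kb (vertical axis, from 0) in each gene and the 50 kb on either side, with 1 bar per library and no error bars because each group is 1 library. CD44 has the longest covered length in the control, 41127 bp, and HAS2 is the gene with the longer bar in the knockdown, 3772 against 1308 bp.

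**Figure D2:**
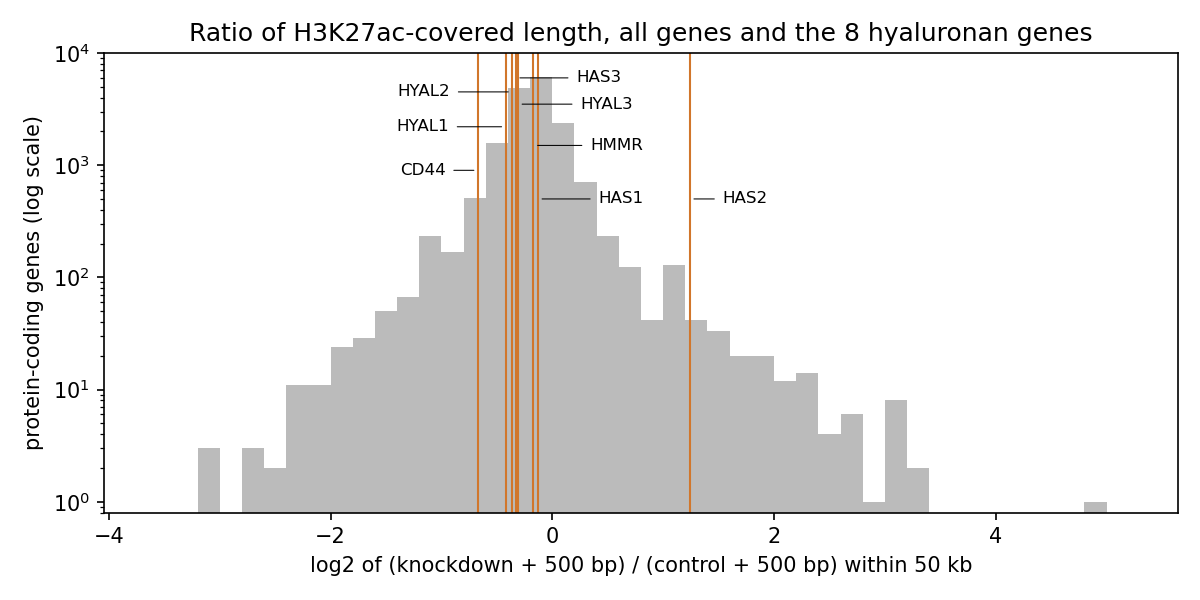
Number of protein-coding genes (vertical log axis) by the log2 ratio of knockdown to control covered length, in classes of 0.2, with orange lines at the 8 members. CD44 lies at -0.67 and HAS2 at 1.24, and the other 6 lie between -0.42 and -0.13.

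The synthase genes differed from one another in how much acetylation they carried. HAS2, the main synthase of many mesenchymal cells, spans chromosome 8, 121612116 to 121641440 (hg38), on the reverse strand. In the control, its start lay in a gap between a peak of 501 bp inside the gene, which ended 1141 bp from the start, and a peak of 807 bp that began 328 bp upstream. In the knockdown a single peak of 3772 bp, at 121639074 to 121642845, covered the start and overlapped both control peaks. The start of HAS2 was thus covered in the knockdown only, as were 0.682% of 22132 start positions of protein-coding genes, while 2.18% were covered in the control only and 57.2% in both. Those positions come from the RefSeq promoter table, which has no entry for HAS2. The HAS2 start used here is the end of its gene record, so the 2 are of unlike kinds. The antisense gene HAS2-AS1 overlaps this end of HAS2, and the mark is not strand-specific, so the peak cannot be assigned to either gene. With 500 bp added, the ratio at HAS2 was 2.36-fold, and 154 of the 17422 genes had a higher one. No SMARCB1 peak lay in the HAS2 window.

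The largest difference lay further upstream. From its start to 600 kb upstream, HAS2 had 5458 bp of H3K27ac in 4 control peaks and 54217 bp in 14 knockdown peaks. The gain was 48759 bp, or 9.18-fold with 500 bp added to each length. The same upstream span was at least 1.5-fold higher in the knockdown for 2.10% of 15357 genes with a start in the RefSeq promoter table and a peak there. None of those genes gained more covered length. By the same ratio 1 gene, ANOS1, was higher, at 11.6-fold with 500 bp added to each of its 501 and 11126 bp. The 600 kb span was set for HAS2 alone, with earlier results of these data known. The place of HAS2 among these genes is therefore a description and not a test. Nearly all of the gain upstream of HAS2 fell in a cluster of 11 knockdown peaks from 122078815 to 122189090, 437 to 548 kb upstream of the start. The cluster was delimited after its peaks were seen, as knockdown peaks less than 25 kb apart.

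Within the 110 kb of the cluster the knockdown list covered 49837 bp, or 45.2%, and the control list covered 1070 bp, or 0.970%. Its widest peak, of 19032 bp at 122126694 to 122145725, enclosed the single control peak there, of 1070 bp. The other 10 had no control peak under them. They ranged from 501 to 10478 bp, and that of 10478 bp, at 122102376 to 122112853, was the widest of all 4146 knockdown-only peaks. Peaks of 5579 and 4204 bp ranked 4 and 8 in that list. Outside the cluster the 600 kb span was alike in both libraries, with 4388 bp in control cells and 4380 bp in knockdown cells. A shared peak 169 kb upstream measured 3080 bp in control cells and 2347 bp in knockdown cells, and a shared peak 101 kb upstream measured 501 and 628 bp.

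The genome was also divided into 100 kb intervals, of which 15000 held H3K27ac. The interval from 122100000 to 122199999 on chromosome 8 had the largest gain of all, from 1070 to 42660 bp, a difference of 41590 bp. The interval with the next largest, at COL5A2 on chromosome 2, gained 19619 bp. At least 10 kb was gained by 0.0733% of intervals and lost by 0.320%. The 300 kb beyond the far edge of the cluster held 0 bp in control cells and 501 bp in knockdown cells, and the 300 kb on its HAS2 side held 3080 and 2347 bp. No protein-coding gene lay in the cluster, and HAS2, at 437 kb, and ZHX2, at 591 kb, were the nearest on either side. No SMARCB1 peak lay in the cluster or anywhere in the 600 kb. Both H3K27ac lists were called against the input of control cells, so a difference in DNA copy number between the cell populations was not subtracted, and its part in this gain was not tested.

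**Figure D3:**
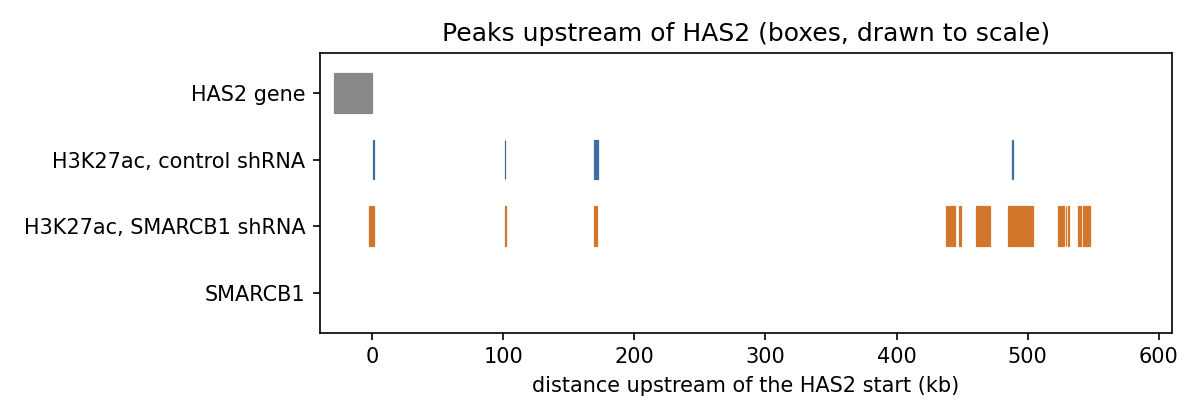
Peaks of each library (boxes to scale) by distance in kb upstream of the HAS2 start, with the gene left of 0. The SMARCB1 row is empty. The knockdown row holds 11 peaks between 437 and 548 kb where the control row holds 1.

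HAS3, on chromosome 16 from 69083484 to 69118719, carried its acetylation around the start given by RefSeq at 69107540, inside the gene record. That start was covered by 6356 bp of control peak and 4212 bp of knockdown peak, and a control peak of 1019 bp further into the gene had no knockdown counterpart. Within the gene, covered length was 7375 bp in control cells and 4212 bp in knockdown cells. The whole window held 34053 and 26966 bp, but most of it lay on the neighbouring gene TANGO6, whose regions of 8788 and 7634 bp in the control kept 90.7% and 87.4% of their length. Other TANGO6 regions found in both libraries kept 80.2% to 93.3%. Control regions of 501 and 886 bp on that gene had no knockdown peak, and a knockdown region of 501 bp had no control peak. The region on the HAS3 start kept 66.3%. HAS1, on chromosome 19 from 51713112 to 51723991, had no H3K27ac in its record and none on its start in either library. Its window held 6624 bp in control cells and 6021 bp in knockdown cells, and both regions there lay on the neighbour SPACA6. The nearest peak to the HAS1 start was 18696 bp away in control cells and 18846 bp away in knockdown cells. HAS1 and HAS3 had no SMARCB1 peak in their windows.

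CD44, the principal cell-surface receptor for hyaluronan, lies on chromosome 11 from 35139171 to 35232402 and had the most covered bases in its record of the 8 genes, in both libraries. Within the record, 38.8% of its length was covered in the control and 22.4% in the knockdown, or 36142 and 20862 bp. Its start stayed covered, by a peak of 10339 bp in the control and of 7389 bp in the knockdown. The 250 bases before that start, at chr11:35138921-35139170 on the forward strand, lay wholly within H3K27ac in both libraries and are shown because the start kept the mark while regions of the gene body had it in control cells alone. Capitals mark the GC box, GGGCGG on either strand, of which there were 2. A GC box was present in 53.7% of 22132 windows of this length before the starts of protein-coding genes. The AP-1 site TGANTCA, searched on both strands, was not among the letters of this window and was present in 5.35% of all such windows.
CD44: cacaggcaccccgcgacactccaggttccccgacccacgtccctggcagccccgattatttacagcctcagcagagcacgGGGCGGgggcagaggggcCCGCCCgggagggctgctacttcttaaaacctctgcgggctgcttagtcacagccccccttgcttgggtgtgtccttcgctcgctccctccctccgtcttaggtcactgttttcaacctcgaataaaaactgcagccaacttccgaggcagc

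The difference at CD44 lay in the body of the gene. The record held 12 separate acetylated regions when both libraries were pooled, of which 4 were found in both, 7 in control cells alone and 1, of 501 bp and next to a control-only region of equal width, in knockdown cells alone. The 7 control-only regions measured 501 to 2190 bp and together 7862 bp. They lay between the start region and 53.5 kb into the gene. The 4 regions of both libraries were each shorter in the knockdown. The start region went from 10339 to 7890 bp, a region 27.2 kb downstream from 10449 to 8044 bp, and a region 75.4 kb downstream from 4028 to 3140 bp. A region 36.0 kb downstream went from 4478 to 1985 bp and broke from 1 peak into 3. Of the peaks in the record, 11 were from the control, with a median width of 1987 bp, and 9 from the knockdown, with a median of 501 bp.

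Outside the gene the CD44 locus differed less. The 2 regions upstream, 39.8 and 27.9 kb before the start, had 1022 and 2259 bp in control cells and 1114 and 2179 bp in knockdown cells. Beyond the far end, a control peak of 501 bp had no counterpart, and a region on SLC1A2 had 638 bp in control cells and 1020 bp in knockdown cells. With 500 bp added, the CD44 window was 1.59-fold shorter in the knockdown, and 864 of the 17422 genes had a lower ratio. After centring on all covered bases it was 1.42-fold shorter, and with a window of 100 kb 1.47-fold, so the call ended under both. The 100 kb interval that holds most of the gene, from 35100000 to 35199999, went from 35387 to 20599 bp, a change of -14788 bp that ranked 11 among the losses of the 15000 intervals.

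**Figure D4:**
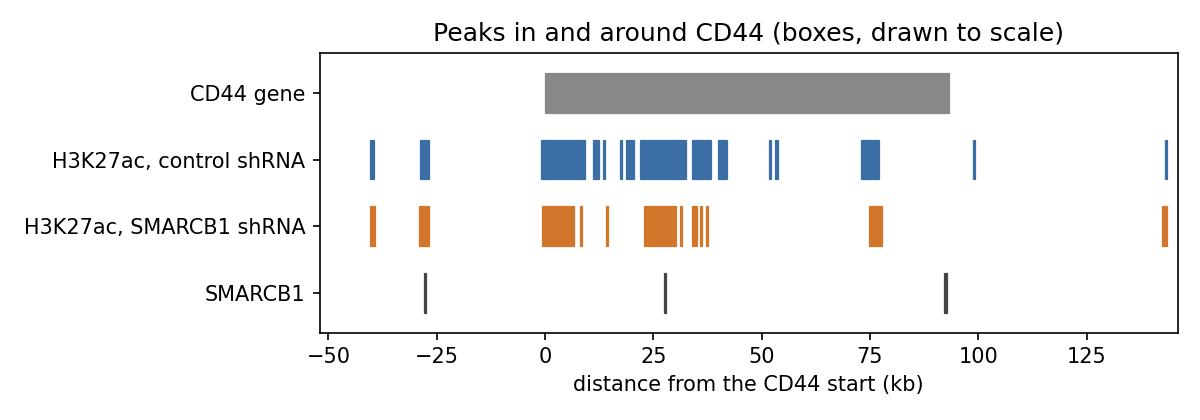
Peaks of each library (boxes to scale) by distance in kb from the CD44 start, with the gene as a grey box. Blue control peaks between 10 and 54 kb that have no orange knockdown peak beneath them include 7 control-only regions, and 3 SMARCB1 peaks lie in the window.

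CD44 was also the member with the most SMARCB1 peaks, 3. One lay 27.8 kb upstream and another 27.6 kb downstream of the start, in an intron by the authors' class, and both had the authors' value of 10.6. Both overlapped H3K27ac of both libraries, in regions that kept 96.5% and 77.0% of their control length. The third, of 766 bp with a value of 18.5, lay in the 3' UTR without H3K27ac. The labels and headers state no unit for these values, which ranged from 7.39 to 1217.4 over the list, with a median of 11.6. None of the 7 control-only regions overlapped a SMARCB1 peak. The share of all control-only peaks that overlap one is not given, so this count has no background.

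HMMR, which binds hyaluronan and the mitotic spindle, lies on chromosome 5 from 163460632 to 163491941. It differed little, with 12446 bp in control cells and 11020 bp in knockdown cells, a log2 ratio of -0.17 that equals the median of all genes with a peak. Its start was covered by a peak of 5308 bp in control cells and 4086 bp in knockdown cells, which it shared with the divergent neighbour NUDCD2. The other 2 regions of the window, on CCNG1 and MAT2B, kept 95.9% and 98.0% of their length. No SMARCB1 peak lay in the window. The 250 bases before the HMMR start, at chr5:163460382-163460631 on the forward strand, were acetylated in full in both libraries and are shown for the elements of cell cycle promoters. Capitals mark the GC box, the CCAAT box (CCAAT on either strand) and the CHR element (TTTGAA on either strand). There were 5 CCAAT boxes, of which 2 overlap on opposite strands, and 2 adjoining CHR elements, 28 and 22 bases before the start. Of the 22132 windows, 32.7% held a CCAAT box, and 2435 of them held a CHR element.
HMMR: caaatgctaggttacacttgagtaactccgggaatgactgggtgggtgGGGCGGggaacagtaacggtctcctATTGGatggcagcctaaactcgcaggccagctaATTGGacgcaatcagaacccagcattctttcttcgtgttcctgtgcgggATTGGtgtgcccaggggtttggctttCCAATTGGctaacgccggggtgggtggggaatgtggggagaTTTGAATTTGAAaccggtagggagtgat

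The hyaluronidase genes stand side by side on chromosome 3 and share most of their peaks, so they form 1 locus. HYAL3 spans 50292832 to 50299405, HYAL1 50299893 to 50312381 and HYAL2 50317808 to 50322745, all on the reverse strand. Their windows held 31514, 29657 and 24037 bp in control cells and 25343, 22114 and 18586 bp in knockdown cells. The 3 windows joined had 36344 bp in control cells and 28800 bp in knockdown cells, or 79.2%. They touched 15 protein-coding genes and 14 acetylated regions, of which 12 were found in both libraries, 1 in control cells alone and 1 in knockdown cells alone. Of those 12 regions 11 were shorter in the knockdown and 1, at ZMYND10, was longer, by 30 bp. Over the windows of all 8 members, 28 of 32 regions found in both libraries were shorter in the knockdown, against 70.0% of all such regions in the genome.

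**Figure D5:**
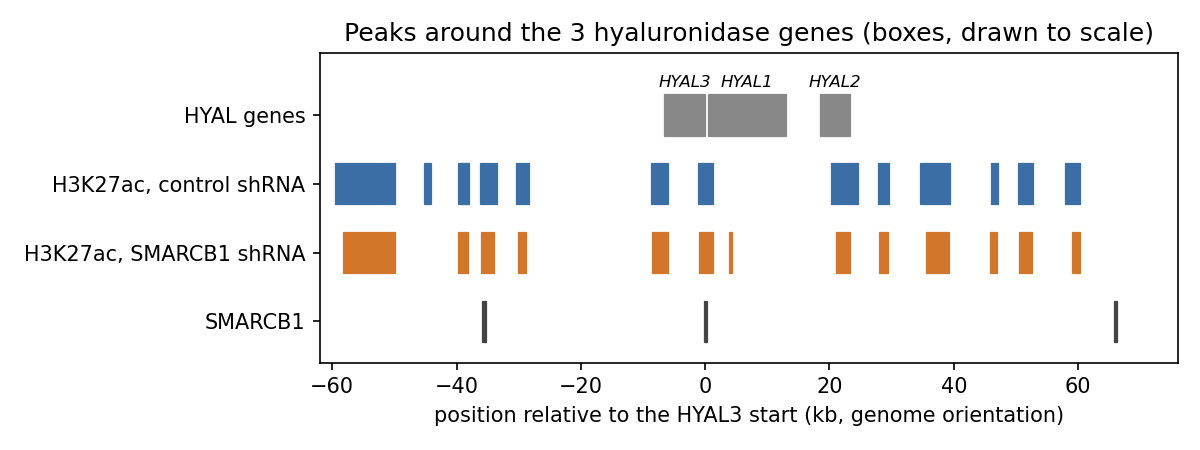
Peaks of each library (boxes to scale) by position in kb relative to the HYAL3 start, in genome orientation, with the 3 hyaluronidase genes as grey boxes. Nearly every control peak has a knockdown peak beneath it, and the knockdown peak at about 4 kb, in HYAL1, has no control peak above it.

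The 3 starts of the hyaluronidase genes were covered in 3 different ways. HYAL3, whose record overlaps NAA80, has RefSeq starts at 50298860 and 50299405, and the latter is described here because it lies under a SMARCB1 peak. Peaks of 2377 bp (control) and 2255 bp (knockdown) covered it, and so did a SMARCB1 peak of 500 bp, at 50299193 to 50299692, which also spanned the 250 bases before the start and which the authors classed as promoter-TSS with a value of 10.0. No other of the 9 member starts lay under a SMARCB1 peak. The other SMARCB1 peaks of the joined window, at 50263521 to 50264149 and 50365142 to 50365641, had values of 13.2 and 11.1, and the first of them overlapped H3K27ac of both libraries. HYAL2, the membrane-anchored enzyme, had a control peak of 4324 bp over its start at 50322745. Its knockdown peak of 2209 bp ended 3 bp short of that start, so the call of a start covered in the control only rests on 3 bp. The region kept 51.1% of its length, the lowest share among the regions of both libraries in the joined window. HYAL1, the lysosomal enzyme, had no control peak within 2935 bp of its RefSeq start at 50303574, and a knockdown peak of 501 bp, the smallest width in either list, covered it.

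The 250 bases before these starts are shown because neighbouring promoters differed in the mark. All are on the reverse strand, at chr3:50299406-50299655 for HYAL3, chr3:50303575-50303824 for HYAL1 and chr3:50322746-50322995 for HYAL2. H3K27ac covered all of the HYAL3 window in both libraries. It covered 0 bases of the HYAL1 window in the control and 132 in the knockdown, and 250 bases of the HYAL2 window in the control and 0 in the knockdown. Capitals mark the GC box, with 2 matches at HYAL3, 2 at HYAL1 and none at HYAL2. The dinucleotide CG occurred 15 times before HYAL3, 4 times before HYAL1 and 9 times before HYAL2, against a median of 16 over all windows.
HYAL3: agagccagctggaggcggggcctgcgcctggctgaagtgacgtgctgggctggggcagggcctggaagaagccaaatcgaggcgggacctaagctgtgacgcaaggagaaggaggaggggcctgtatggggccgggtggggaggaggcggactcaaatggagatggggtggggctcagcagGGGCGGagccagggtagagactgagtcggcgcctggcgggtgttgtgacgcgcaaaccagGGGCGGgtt
HYAL1: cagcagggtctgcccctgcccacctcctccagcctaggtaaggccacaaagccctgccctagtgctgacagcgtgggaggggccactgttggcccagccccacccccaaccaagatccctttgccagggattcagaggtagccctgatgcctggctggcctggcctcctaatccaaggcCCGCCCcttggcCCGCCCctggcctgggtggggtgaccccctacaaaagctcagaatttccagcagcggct
HYAL2: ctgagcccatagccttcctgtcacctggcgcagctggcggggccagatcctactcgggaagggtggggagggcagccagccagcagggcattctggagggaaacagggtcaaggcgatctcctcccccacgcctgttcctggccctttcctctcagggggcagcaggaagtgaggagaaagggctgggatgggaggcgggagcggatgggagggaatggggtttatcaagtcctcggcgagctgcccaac

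SMARCB1 peaks lay in the windows of 4 of the 8 members, CD44 and the 3 hyaluronidases, and 39.0% of all protein-coding genes had one in such a window. Because the hyaluronidase windows overlap, these were 6 different peaks in all. Of these 6 peaks, 4 overlapped control H3K27ac, or 66.7% (95% Wilson interval 30.0 to 90.3%), and the same number overlapped knockdown H3K27ac, against 70.6% and 69.0% of all SMARCB1 peaks. With each peak counted once, 12 of 45 control H3K27ac peaks in the 50 kb windows had no knockdown peak, or 26.7% (16.0 to 41.0%), and 8 of these 12 were in the CD44 window. Over the whole list the share was 17.7%. In the other direction, 3 of 40 knockdown peaks had no control peak, or 7.50% (2.58 to 19.9%), against 12.2% over the list. Both intervals contain the share of the whole list, and they cover counting error only. They treat peaks as independent draws, although many peaks share a window, so they may be too narrow for a comparison with the list.

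Other genes of the hyaluronan pathway passed the threshold about as often as genes in general. Of 49 genes in 5 lists, 44 had a peak within 50 kb, and of these 1 was at least 1.5-fold higher in the knockdown, 2 were lower and 41 lay within the threshold. Among all genes with a peak, 2.70% were higher and 6.76% were lower, so these counts are near the background. The median log2 ratio was -0.03 for the pathway genes and -0.17 for all genes with a peak. All 3 belonged to the hyaluronan-binding matrix list, in which 15 of 17 genes had a peak. HAPLN1, a link protein that ties hyaluronan to proteoglycans, had 1018 bp in control cells and 2193 bp in knockdown cells. BCAN, which encodes the proteoglycan brevican, had 12696 and 6471 bp, and its neighbour HAPLN2, another link protein, 13194 and 8277 bp, in windows that overlap. Both windows held SMARCB1 peaks, of 942 bp in all for BCAN and 1000 bp for HAPLN2, and that of HAPLN1 held none. No gene passed the threshold among 7 enzymes that supply the sugar precursors, 6 genes of hyaluronan breakdown other than the members, 5 other receptors and 11 CD44 partners and processing enzymes. Just inside it was GFPT2, an enzyme of the hexosamine pathway, with 2474 and 3919 bp. With 500 bp added to each, GFPT2 was 1.49-fold higher in the knockdown. UAP1, which makes the UDP-N-acetylglucosamine precursor and had 21922 and 15756 bp, passed as lower with a window of 10 kb. The receptor gene STAB1, with 9229 and 7299 bp, passed as lower when peaks of at least 1000 bp were used. The depolymerising protein genes CEMIP and CEMIP2 had 6747 and 17590 bp in control cells and 6713 and 17485 bp in knockdown cells. Ezrin, EZR, which links CD44 to actin, had 21549 and 19557 bp.

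For each member, the 2 genes on other chromosomes with the most similar covered lengths in the 3 libraries were named by their distance on a log2 scale. Nearest to HAS2 were EDA, with 1257 bp in control cells, 3763 bp in knockdown cells and no SMARCB1 peak, and LMNTD1, with 1339 and 3918 bp and none. Nearest to CD44 were MYO9B, with 37713 and 26509 bp, and FSTL1, with 40983 and 30346 bp, at larger distances of 0.161 and 0.242 than the 0.041 and 0.054 for HAS2. B4GALT1 and TAB2 were nearest to HMMR, at 0.010 and 0.011, SNX33 and MYO16 to HAS3, at 0.043 and 0.049, and CABCOCO1 and CAPN1 to HAS1, at 0.005 and 0.011. For the hyaluronidases they were EVC2 and PYGO2 (HYAL1), MAP2K2 and ZNF436 (HYAL2), and CKS1B and FLAD1 (HYAL3), at distances from 0.045 to 0.084, and CKS1B and FLAD1 are neighbours with the same peaks. This likeness is over 3 libraries only.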

How the data were processed

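Peak lists of 3 ChIP-seq libraries from SK-Hep1 cells were used, and a labelled input library was not analysed here. The deposited values are peak positions in hg38. Per the submitters' processing notes, Bowtie2 and HOMER were used, with no version stated. The file headers state that the authors called H3K27ac with HOMER in histone style, each library against the control input, with peaks of 500 bp at least 1000 bp apart, 4-fold signal over input and stitching, and with fragment lengths of 190 and 158 bp. The deposited score is the same placeholder for every H3K27ac peak, so covered length was the only size. For the SMARCB1 list, no header gives caller settings or depth.

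Only autosomal and X-linked peaks entered, which removed 3 from each H3K27ac list. Covered length was summed in windows of 50 kb around RefSeq records, and 1 base counted as overlap. A ratio with 500 bp added had to reach 1.5-fold. Shares have 95% Wilson intervals. Positions are 1-based, and promoter sequences are RefSeq's (GRCh38.p14), with entries for 7 of the 8 members and none for HAS2, whose strand is background knowledge. The code was tested on simulated data and against bedtools 2.31.1. Scripts ran in Python 3.11.15 with SciPy 1.17.1, matplotlib 3.10.9, NumPy 2.4.6 and pandas 2.3.3.

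The members, lists, thresholds and motifs were chosen with earlier results of these data known. Named genes are the 8 members, up to 2 pathway genes per direction and list past 1.5-fold, the 2 genes most like each member and neighbours nearer to a peak. CEMIP, CEMIP2, EZR, GFPT2, UAP1, STAB1, COL5A2, ANOS1 and ZHX2 were named after their values were seen. The alternatives covered the window, fold, added length, peak width, centring, merging and overlap.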

Additional observations from a re-analysis of the deposited data

How the results depend on the processing

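HAS2 was the 1 member higher in the knockdown under all 10 alternatives run for the members, but several of these could not alter its call. Its window held a single acetylated region, so windows of 10, 25 and 100 kb gave the same difference, -2464 bp (control minus knockdown). Merging neighbours under 1000 bp apart also left it at -2464 bp, because the 2 control peaks lie farther apart than that. A merge across their gap was not run, so the call rests on that gap being uncovered in the control. The count of lower members was 1 (CD44) in the main setting. It was 2 with a window of 10 kb (CD44 and HYAL2) and 3 with the wider 50% of each list (CD44, HYAL1 and HYAL2). It was 0 with a window of 100 kb, with a fold of 2 and after centring on all covered bases, and the cause was not tested. The share of all genes past the threshold is given for the main setting and after centring only. Member counts under the other settings therefore have no background. Of 57 differences at single members, 36 stayed within 1.5 times, 19 moved further and 2 turned: HYAL3 to -246 bp (control minus knockdown) with a window of 10 kb, and HAS1 to -124 bp after centring. The HAS2 upstream difference of -48759 bp was 8 bp within 300 kb, a span that ends before the cluster, and -47201 to -55310 bp otherwise, and the 100 kb interval still ranked first, at 35617 bp, when intervals were moved by 50 kb. This shift and the union of peaks at HAS2 were chosen after seeing the data. Pathway genes past the threshold were 2 higher (HAPLN1 and TNFAIP6) and 4 lower (UAP1, BCAN, HAPLN2 and HAPLN3) with 10 kb. They were 0 and 0 with a fold of 2, and 0 higher and 3 lower (STAB1, BCAN and HAPLN2) with peaks of at least 1000 bp. These pathway counts likewise have no share of all genes beside them. With peaks of at least 1000 bp, 14.3% of control and 0% of knockdown peaks in the member windows were found in 1 library only. The share over the whole lists at that width is not given, so these values have no background. No paired analysis was possible because each group has 1 library. Tag depth and fragment length differed between the H3K27ac libraries, and their part in peak width was not tested.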

Other observations

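The interval upstream of HAS2 was not the only one outside protein-coding genes among the largest gains. Of the 11 intervals of 100 kb that gained at least 10 kb, 5 overlapped no protein-coding gene record. The share of all intervals without such a record is not given, so this count has no background. Besides the HAS2 interval, the 5 included chromosome 8 from 57500000 (11712 bp in control cells and 25616 bp in knockdown cells) and chromosome 4 from 74600000 (7278 and 18327 bp). The others were on chromosome 15 from 98000000 (0 and 11609 bp) and from 98100000 (1160 and 11373 bp), and they adjoin. Among the 20 largest losses, CD44 stood beside intervals at BCAR3, which ranked first with 60499 bp in control cells and 35799 bp in knockdown cells, and EXT1, a glycosyltransferase of heparan sulfate synthesis, with 50364 and 30023 bp. These genes were named after their values were seen.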
